A study of Mus musculus with 8 samples.

Results

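Imprinted genes were followed across 8 Affymetrix expression arrays of mouse embryonic stem cells, by locus and by expressed allele. The members were 38 listed genes, and the probe sets taken were those whose single gene symbol in the platform annotation was one of them. This found 103 probe sets of 36 genes, out of 45101 probe sets on the array and 18194 genes named there. H19 and Zrsr1 had no probe set with their symbol alone and were not analysed here. Of the 36 genes, 33 passed the filter on low signal with their brightest probe set, and 83 of the 103 probe sets passed on their own. Usp29, Zim1 and Asb4 did not pass, with signals of 4.96 to 33.9, 3.67 to 38.5 and 2.03 to 37.9 over the 8 arrays, around or below the filter of 22.1.

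The cells had a 129X1 x 129S1 background and were grown under standard conditions for embryonic stem cells. Cells with a short hairpin against Top1 (shTop1), a DNA topoisomerase, or against p53 (shp53), the tumour suppressor, were studied together with mock cells, 1 part to 4 parts. A coculture grew both kinds of cell together until day 4. For a mix, which the labels call a control, each kind grew alone until day 4 and the RNAs were then joined 1:4, so every one of the 4 groups (shTop1 mix, shp53 mix, shTop1 coculture, shp53 coculture) holds RNA of knockdown and of mock cells and none holds mock cells alone. Each group had 2 arrays, labelled as biological replicates. Nothing says that these came from separate cultures or that each mix had mock RNA of its own, so p-values measure only how far these samples spread, which may be technical. The share of knockdown cells at the end of the coculture was not measured, and in such bulk RNA fewer cells of a type and less RNA per cell cannot be told apart.

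An imprinted gene is transcribed mainly from the allele inherited from one parent, because an imprinting control region was methylated in only one of the germ lines and kept that state after fertilisation. Imprinted genes lie in clusters, in which a long non-coding RNA expressed from one parental chromosome is often found beside protein-coding genes expressed from the other. In embryonic stem cells the level of the Dlk1-Meg3 cluster RNAs is known to vary between lines and passages, which made this cluster a common readout of imprint stability. Both parents of the line were 129 substrains and the arrays read no allele, so the values below are total levels and not allelic ratios.

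The non-coding RNAs Meg3 and Kcnq1ot1 head the clusters described first, and their promoter windows are shown for that reason. Each runs from 250 bases before to 50 bases after the RefSeq transcript start (GRCm38.p6). Capitals mark CCAAT (the CCAAT box) in both windows, and in the Meg3 window also TGACGTCA (the cAMP response element) and overlapping matches to TATAAA (the TATA box) on both strands. The Meg3 window lies at chr12:109540746-109541045 on the plus strand, and the Kcnq1ot1 window at chr7:143296498-143296797 on the minus strand.
Meg3 promoter: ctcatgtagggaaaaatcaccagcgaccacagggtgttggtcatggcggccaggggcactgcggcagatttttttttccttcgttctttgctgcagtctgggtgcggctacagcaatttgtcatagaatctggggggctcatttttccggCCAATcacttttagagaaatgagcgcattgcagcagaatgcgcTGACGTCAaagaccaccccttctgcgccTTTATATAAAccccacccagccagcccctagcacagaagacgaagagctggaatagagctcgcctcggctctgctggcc
Kcnq1ot1 promoter: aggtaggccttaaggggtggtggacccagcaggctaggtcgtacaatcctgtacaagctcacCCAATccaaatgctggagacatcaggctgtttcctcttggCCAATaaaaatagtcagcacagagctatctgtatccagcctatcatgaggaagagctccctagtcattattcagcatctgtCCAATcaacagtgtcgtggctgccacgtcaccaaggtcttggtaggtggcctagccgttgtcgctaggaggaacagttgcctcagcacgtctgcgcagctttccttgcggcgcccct

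The motifs were searched on both strands of 32851 RefSeq promoter windows of the same length. Of the members, 32 had at least 1 window, with 50 windows in all. TGACGTCA was found in 1.79% of all windows and in 3 of the 50 member windows (6%), those of Meg3, Peg3 and Usp29. Peg3 and Usp29 lie at the same locus, and whether their windows share a site was not checked. In the Meg3 window TGACGTCA spans bases 194 to 201, which puts its first base 57 bases before the transcript start. CCAAT was found in 37.4% of all windows and in 17 of the 50 member windows (34%), and the Kcnq1ot1 window holds 3 copies, starting at bases 63, 103 and 184. TATAAA was found in 13.6% of all windows and in 10 of the 50 (20%). TGCCGC, the hexamer that the imprint-protecting zinc finger protein ZFP57 binds when methylated, was found in 11.6% of all windows and in 12 of the 50 (24%), that of Meg3 among them. A match describes the letters of a window and is not a binding site.

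Meg3, Rian and Mirg are also the host transcripts of microRNAs, and examples are shown because their precursors are cut from the RNAs that the probe sets measure. RefSeq places 1 hairpin and 3 mature microRNAs inside Meg3, 3 hairpins with 6 inside Rian and 10 hairpins with 19 inside Mirg. The 3 inside Meg3 are not products of 1 hairpin, since miR-1906 (chr12:109544588-109544609) lies far from miR-770-5p and miR-770-3p. Capitals mark the seed, bases 2 to 8. The last pair, miR-496a-5p and miR-453, share the seed GGUUGCC, and the 19 mature forms inside Mirg have 18 distinct seeds.
miR-770-5p (Meg3, chr12:109563710-109563731): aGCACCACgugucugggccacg
miR-370-3p (Rian, chr12:109618305-109618326): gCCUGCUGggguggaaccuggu
miR-154-3p (Mirg, chr12:109738474-109738495): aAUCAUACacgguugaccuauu
miR-410-3p (Mirg, chr12:109743764-109743784): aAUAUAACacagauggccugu
miR-496a-5p (Mirg, chr12:109739132-109739152): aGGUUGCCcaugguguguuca
miR-453 (Mirg, chr12:109735669-109735692): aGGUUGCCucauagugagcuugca
Mature microRNAs were not measured by these arrays.

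Signals below are the deposited linear intensities after quantile normalisation. A difference is coculture minus mix on the log2(signal + 16) scale, averaged over shTop1 and shp53 unless a knockdown is named, with the standard error (SE) of the limma fit over all 8 arrays. No gene was called between coculture and mix. In that fit 0 of 14267 genes, members included, had an adjusted p under 0.05 (0.0% called), while 1672 had an unadjusted p under 0.05, 1012 of them higher in coculture and 660 lower. Limma with a variance trend and robust estimation called 31 genes, none of them a member. The smallest adjusted p of any member in any comparison or setting was 0.0615, for Kcnq1ot1 in that latter fit. So no member passed this test, which with 2 arrays per group does not show that none changed. The values that follow are given as differences with their errors.

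Mean signal was 812 to 896 per array, and shTop1 coculture replicate 1 stood apart, at 32.6 on the second principal component of all genes against -15.5 to 3.63 for the other arrays. On the first component shTop1 coculture replicate 2 was the highest, at 26.1 against -21.1 to 12.5 for the other arrays. Some of the values below are given without shTop1 coculture replicate 1 too, but not all that shift with it. As a check of the labels, Top1 had a signal of 5110 to 5316 with shTop1 and 5456 to 5886 with shp53 (log2 difference -0.11, two-sided exact permutation p = 0.0286 over 70 splits, the smallest that 4 against 4 arrays allow). A dimmer Top1 probe set did not follow, with 270.1, 283, 183 and 188 with shTop1 and 223, 219, 258 and 131 with shp53, which overlap. The level of p53 was not analysed here. All 12 pluripotency markers were above the filter, and their summed signal was 122356 to 124709 in the mixes and 118639 to 126731 in the cocultures.

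Across the 33 members, differences lay on both sides of 0. In 17 of them coculture was lower than the mixes, and the median difference was -0.015, against 0.022 over all genes, of which 44.7% were below 0. In 3 of the 33 the unadjusted limma p was under 0.05, as in 1672 of all 14267 genes, of which 660 were lower and 1012 higher. These 3, Kcnq1ot1, Mirg and Mest, had lower signal in coculture. Kcnq1ot1 was the only member whose 4 coculture arrays all lay below its 4 mix arrays (1 of 33, 3.03%), where 3.35% of all genes did so. None had all cocultures above all mixes, as 5.75% of all genes did. At this level the share of members whose groups do not overlap was near or below the background.

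**Figure D1:**
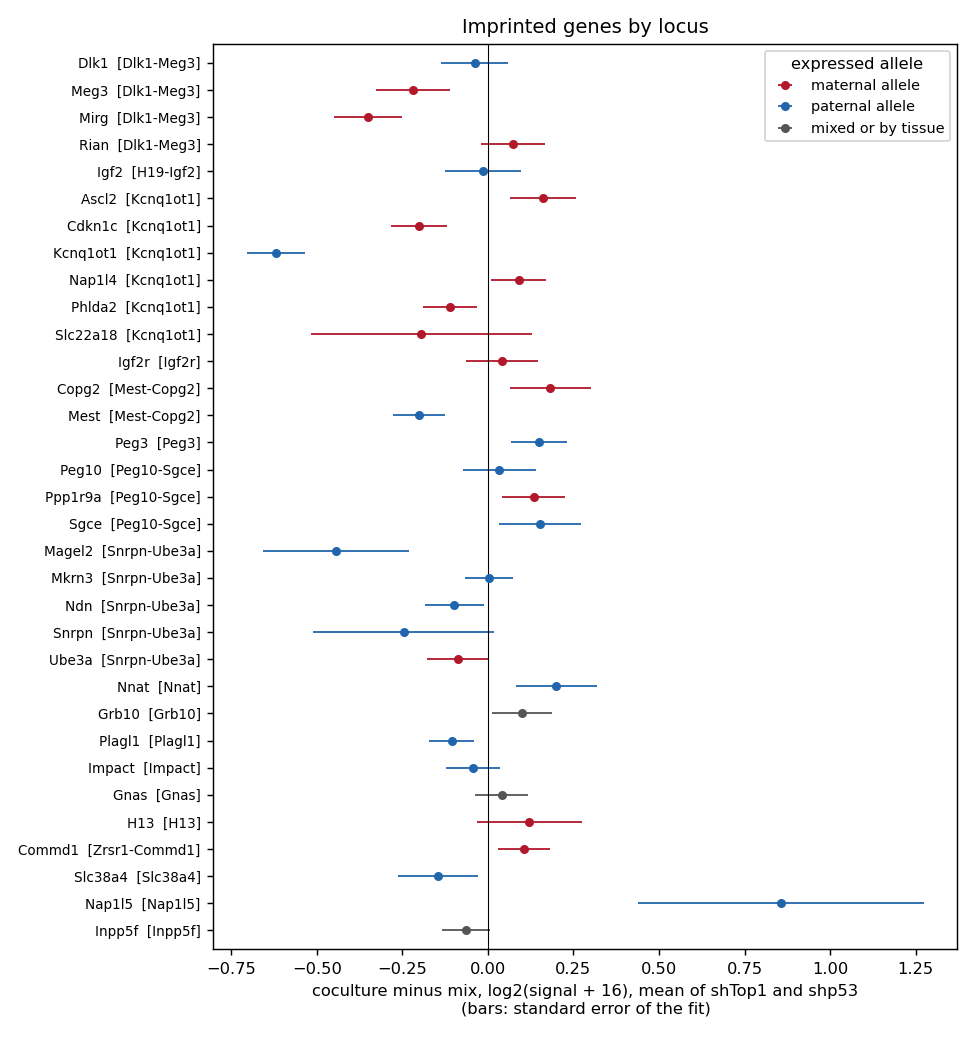
Difference between coculture and mix of each of the 33 imprinted genes tested, on the log2(signal + 16) scale averaged over shTop1 and shp53, ordered by locus and coloured by the allele that is expressed according to textbook knowledge. Points are fitted differences and bars their standard errors. Most genes lie between -0.25 and 0.25, Kcnq1ot1 lies at -0.62, and Nap1l5, whose bar is the longest, at 0.86.

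Single probe sets gave a different picture from 1 probe set per gene. Of the 83 member probe sets, 57 were below 0, with a median of -0.12, against a median of 0.00061 and 49.9% below 0 over all 31571 probe sets tested. An unadjusted limma p under 0.05 was reached by 13 member probe sets with lower and 0 with higher signal in coculture, where 5.26% of all probe sets reached it lower and 4.99% higher. No probe set passed after adjustment, among members or elsewhere, with 3236 of all probe sets at an unadjusted p under 0.05. In 8 of the 83 (9.64%) all cocultures lay below all mixes, against 3.43% of all probe sets, and in 0 of them above, against 4.2%. Of these 8, 7 belonged to non-coding RNAs: 3 to Meg3, 2 to Kcnq1ot1 and 1 each to Rian and Mirg. The eighth was a probe set of Ppp1r9a. Probe sets of 1 gene share a target, and Meg3, Rian and Mirg lie in line on 1 strand of 1 locus, so these are not independent observations.

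The 4 non-coding members, Meg3, Rian, Mirg and Kcnq1ot1, were set apart after their values were seen, so their counts are a description. Of their 21 probe sets above the filter, 19 were below 0, with a median of -0.30, and 10 had an unadjusted p under 0.05. Of the 62 probe sets of protein-coding members, 38 were below 0, with a median of -0.069, and 3 had an unadjusted p under 0.05. Among 743 probe sets of other genes that RefSeq classes as long non-coding, 55.3% were below 0, the median was -0.047, and 3.23% had all cocultures below all mixes. Without shTop1 coculture replicate 1, 17 of the 21 were below 0 with a median of -0.26. All remaining cocultures then lay below all mixes in 8 of the 21, where 6.77% of all probe sets did so over these 7 arrays. Leaving out each other array in turn gave 18 or 19 below 0 and medians of -0.38 to -0.27.

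**Figure D2:**
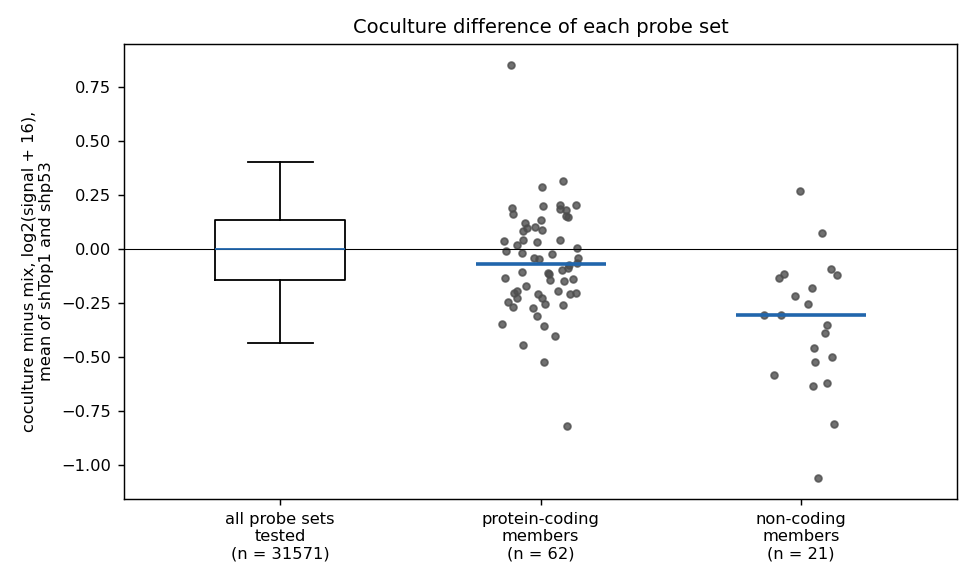
Difference between coculture and mix of each probe set on the log2(signal + 16) scale, averaged over shTop1 and shp53. The box spans the interquartile range of all 31571 probe sets tested with whiskers from the 5th to the 95th percentile, points are member probe sets spread sideways for visibility, and blue lines are medians. The 21 non-coding probe sets centre on -0.30 and the 62 protein-coding ones on -0.069.

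Kcnq1ot1 showed the largest of these differences relative to its error. It is a long non-coding RNA made from the paternal chromosome, antisense to Kcnq1, and it silences neighbouring genes on that chromosome. Which strand its probe sets read was not checked here, so signal from Kcnq1 transcripts and from Kcnq1ot1 cannot be told apart by name alone. Its brightest probe set, 1457781_at, had signals of 258 and 299 in the shTop1 mixes and 308 and 338 in the shp53 mixes. The shTop1 cocultures were at 155 and 150.2, and the shp53 cocultures at 247 and 223. All 4 cocultures were below all 4 mixes, and the shTop1 cocultures were the lowest. The difference was -0.62 (SE 0.084), a ratio of 0.651 in signal plus 16, with an unadjusted p of 0.000301 and a limma adjusted p of 0.282. It ranged from -0.67 to -0.57 when single arrays were left out, and was -0.39 when its 6 probe sets, 2 of them below the filter, were averaged.

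Within a knockdown, the Kcnq1ot1 difference was -0.80 (SE 0.12) for shTop1 and -0.43 (SE 0.12) for shp53. The first had an unadjusted p of 0.00048 and a limma adjusted p of 0.435, the second 0.0105 and 0.685. The difference between the knockdowns, -0.37 (SE 0.17), had an unadjusted p of 0.0693 and a limma adjusted p of 1. Another probe set of the gene, 1442029_at, gave 159, 200.0, 144 and 119 in the mixes (shTop1 replicates 1 and 2, then shp53 replicates 1 and 2). The cocultures in the same order gave 73.5, 37.9, 81 and 76.2, again with no overlap (difference -1.06, SE 0.18, limma adjusted p = 0.406 over probe sets). In the remaining 2 probe sets above the filter the differences were -0.11 and -0.64, and their groups overlapped. In the second of these, 1441588_at, shTop1 coculture replicate 2 was at 6.59, far below the 43.9 to 68.7 of the other arrays. The difference of 1441588_at was -1.06 without shTop1 coculture replicate 1.

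The protein-coding genes of the Kcnq1ot1 cluster are classed as expressed from the maternal chromosome, though whether each is so in these cells was not read. Their differences did not share a direction. Cdkn1c encodes a cyclin-dependent kinase inhibitor. It had 904, 877, 819 and 853 in the mixes against 923, 797, 691 and 617 in the cocultures. The shp53 cocultures were the lowest arrays and shTop1 coculture replicate 1 the highest, so the groups overlapped (-0.20, SE 0.083, limma adjusted p = 0.425). Phlda2, a brake on placental growth, had 3542 to 4101 in the mixes and 3400.5 to 3612 in the cocultures (-0.11, SE 0.079).

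Ascl2, a transcription factor of the placenta, was above 0 in each of its 3 probe sets, by 0.16 to 0.29. The brightest had 231, 286, 216 and 193 in the mixes and 236, 254, 287 and 259 in the cocultures, and overlapped. Nap1l4, a histone chaperone, had a difference of 0.09 (SE 0.08), and its mixes (3141 to 3617) and cocultures (3376 to 3789) overlapped. Slc22a18, a transporter, was dim and scattered, from 51.5 to 85 in the mixes and from 21.5 to 143 in the cocultures, and its 2 probe sets differed in sign (-0.19 and 0.32).

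Meg3 is the maternally expressed non-coding RNA at the head of the Dlk1-Meg3 cluster. Its brightest probe set, 1439380_x_at, had 6599, 6391, 6755 and 7171 in the mixes. The cocultures were at 4383 and 5866 with shTop1 and at 6640.1 and 6515 with shp53. Both shTop1 cocultures lay below every mix, while the shp53 cocultures lay among the mixes. The difference was -0.22 (SE 0.11, limma adjusted p = 0.475). It was -0.36 (SE 0.15) for shTop1 and -0.08 (SE 0.15) for shp53, and the test of the difference between them gave an unadjusted p of 0.247 (limma adjusted p = 1). Without shTop1 coculture replicate 1, the lowest array, the averaged difference was -0.11, and without shTop1 coculture replicate 2 it was -0.32.

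Of the 11 Meg3 probe sets above the filter, 10 were below 0, with a median of -0.26. The exception, 1436057_at, had 81.1 to 148 in the mixes and 109 to 173 in the cocultures (0.27, SE 0.17). Of the 11, 7 were lowest on shTop1 coculture replicate 1. Without that array the difference turned from -0.18 to 0.074 for 1428764_at and from -0.12 to 0.0062 for 1429256_at. In 3 probe sets the cocultures all lay below the mixes. Of these, 1436713_s_at had 1182, 1246, 1012 and 1198 in the mixes against 637, 768, 985 and 905 in the cocultures (-0.50, SE 0.11, and -0.43 without shTop1 coculture replicate 1). For 1452905_at the mixes were at 4415 to 4864 and the cocultures at 3049 to 4203 (-0.30, SE 0.087). The dim 1429257_at had 169 to 253 in the mixes and 109.6 to 148 in the cocultures (-0.58, SE 0.14). The limma adjusted p over probe sets was 0.41, 0.414 and 0.414 for the 3 in turn. The suffixes _s and _x mark probe sets whose probes may also match other transcripts, and which stretch or isoform each reads was not used here.

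Mirg, the microRNA host at the far end of the same run of transcripts, was lower in coculture in both of its probe sets. The brighter, 1457030_at, had 498, 554, 583 and 640.2 in the mixes against 403, 437, 415 and 517 in the cocultures. Only shp53 coculture replicate 2, at 517, reached into the range of the mixes. The difference was -0.35 (SE 0.10), with an unadjusted p of 0.0119 and a limma adjusted p of 0.354. It was -0.31 for shTop1 and -0.39 for shp53, and from -0.43 to -0.27 when single arrays were left out. The other probe set, 1440097_at, had 269 to 374 in the mixes and 140.5 to 209 in the cocultures, with no overlap (-0.81, SE 0.15, limma adjusted p = 0.406 over probe sets).

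Rian, the host of small nucleolar RNAs and of the miR-341 and miR-370 hairpins between Meg3 and Mirg, had probe sets that disagreed. The brightest, 1452899_at, had 4389, 4274, 5134 and 5986 in the mixes and 4336, 5169, 5679.8 and 5560.4 in the cocultures, a difference of 0.074 (SE 0.092) with overlap. By contrast 1440001_at had 408 to 427 in the mixes and 246 to 389 in the cocultures, with no overlap (-0.30, SE 0.12, limma adjusted p = 0.481 over probe sets). Its lowest array was shTop1 coculture replicate 1, at 246 against 347 to 389 in the other cocultures, and without it the difference was -0.19. The dim 1428055_at had 171 to 207 in the mixes and 94.5 to 187 in the cocultures (-0.46, SE 0.14), and 1427580_a_at had a difference of -0.09 (SE 0.10). With the mean of its probe sets in place of the brightest, the sign of the Rian difference turned, to -0.19.

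Dlk1, the paternally expressed protein-coding gene of the cluster and a non-canonical Notch ligand, had a dim signal of 74.7 to 90.7 in the mixes. The shTop1 cocultures were at 96.9 and 94.5, above every mix, and the shp53 cocultures at 76.1 and 60. The differences were 0.16 for shTop1 and -0.23 for shp53 (SE 0.14 each), and their difference had an unadjusted p of 0.0916 (limma adjusted p = 1). Averaged over both it was -0.039 (SE 0.10), and it was 0.40 with the mean of its probe sets, one of which, at 1.9 to 29.9, was below the filter.

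**Figure D3:**
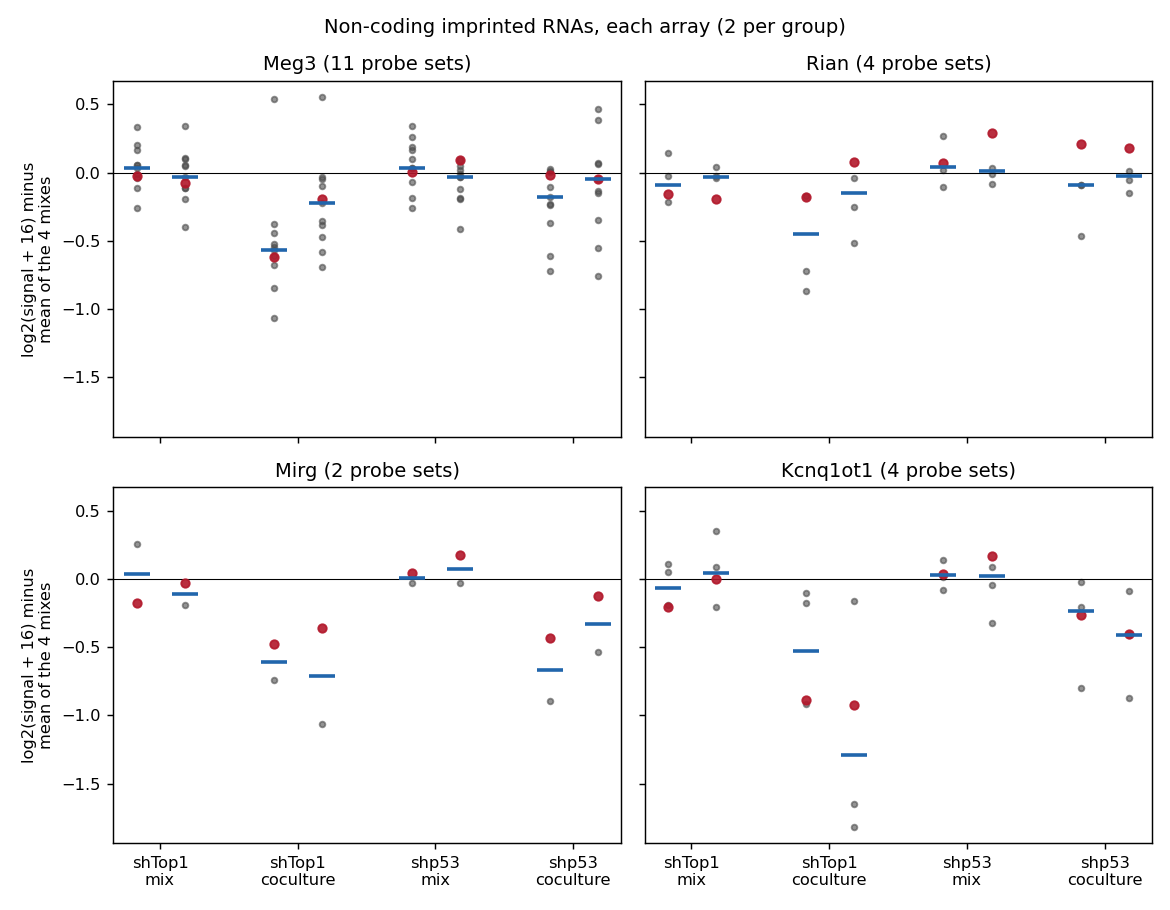
Log2(signal + 16) of every probe set of Meg3, Rian, Mirg and Kcnq1ot1 above the filter on each of the 8 arrays, minus the mean of the 4 mixes for that probe set. Red points are the brightest probe set of a gene, grey points the others and blue bars the median over probe sets on that array, with replicate 1 to the left of replicate 2 in each group. The Kcnq1ot1 and Mirg medians lie below 0 in all 4 cocultures, and 7 of the 11 Meg3 probe sets are lowest in shTop1 coculture replicate 1.

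The genes around Snrpn and Ube3a, the cluster lost in Prader-Willi and Angelman syndromes, were mostly a little lower in coculture. Of its 14 probe sets, 12 were below 0, with a median of -0.13, and none had an unadjusted p under 0.05 in either direction. Ndn, which encodes necdin, a growth suppressor of neurons, was below 0 in all 5 of its probe sets, by 0.098 to 0.14. Its brightest had 661 to 801 in the mixes and 642 to 690.0 in the cocultures, which overlapped (-0.098, SE 0.087). Magel2, a regulator of ubiquitin ligases, had 82.2, 100.1, 102 and 143 in the mixes against 50, 73.7, 63.1 and 117 in the cocultures (-0.44, SE 0.21, limma adjusted p = 0.469, and -0.33 without shTop1 coculture replicate 1). All cocultures except shp53 coculture replicate 2 were below every mix, and that array was above all mixes but the highest.

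Ube3a, a ubiquitin ligase whose imprint is confined to neurons, had 3856 to 4515 in the mixes and 3754 to 4334 in the cocultures (-0.087, SE 0.092), and 5 of its 6 probe sets were below 0. Mkrn3, a ring finger protein, had 343 to 409 in the mixes and 363 to 390.4 in the cocultures, a difference of 0.0036 (SE 0.07). Snrpn, a spliceosome protein, was read here only by 1432096_at, a dim probe set at 53.1 to 129.6, since its other probe sets carry a second symbol, and its difference of -0.25 had an SE of 0.26.

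At the Mest-Copg2 locus, Mest, a paternally expressed hydrolase, had 1514, 1427, 1381 and 1463 in the mixes and 1348, 1389, 1076 and 1232 in the cocultures. One coculture, shTop1 replicate 2 at 1389, lay above the lowest mix at 1381. The difference was -0.20 (SE 0.077), with an unadjusted p of 0.0402 and a limma adjusted p of 0.404, and it was -0.10 for shTop1 and -0.30 for shp53. Copg2, a coat protein of Golgi vesicles on the opposite strand, had 1014 to 1338 in the mixes and 1107 to 1517 in the cocultures (0.18, SE 0.12).

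Genes of the growth factor axis are given next, and none of them was called. Igf2, the paternally expressed fetal growth factor, had 399.6, 409, 470.3 and 446 in the mixes and 354, 479, 466 and 415 in the cocultures, so that the lowest and the highest array were both shTop1 cocultures (-0.015, SE 0.11). Igf2r, the maternally expressed receptor that clears it, had 1123 to 1245 in the mixes and 1016 to 1329 in the cocultures (0.041, SE 0.10). Grb10, an adaptor that restrains insulin signalling, had 5329 to 5713 and 5443 to 6681 (0.10, SE 0.087). Its dim probe sets, 1430164_a_at and 1425457_a_at, went the other way, with differences of -0.26 (SE 0.11) and -0.36 (SE 0.22). Plagl1, a zinc finger factor that regulates other imprinted genes, had 674 to 732 in the mixes and 627 to 674 in the cocultures (-0.11, SE 0.066).

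Peg3, a zinc finger protein, had 1997, 1819, 2099.8 and 2070.3 in the mixes and 2071, 2419.8, 2195 and 2185 in the cocultures. The cocultures other than shTop1 replicate 1 were above every mix (0.15, SE 0.081, limma adjusted p = 0.511). In the Peg10-Sgce cluster the brightest probe sets of Peg10, a domesticated retrotransposon gene needed for the placenta, Sgce, a sarcoglycan, and Ppp1r9a, a neuronal phosphatase scaffold, were all above 0, by 0.034, 0.15 and 0.13. The 4 dimmer probe sets of Ppp1r9a disagreed, with 3 below 0 and 1457603_at above it (0.19, SE 0.24). For 1456072_at the mixes were at 539 to 600.4 and the cocultures at 422 to 534, with no overlap (-0.22, SE 0.08), and for 1432037_at the shTop1 cocultures were at 5.54 and 11.4 and the shp53 cocultures at 34.8 and 79.6, against 48.7 to 64.9 in the mixes. With probe sets averaged per gene the signs of Ppp1r9a and Sgce turned, to -0.20 and -0.12, and that of Peg3 to -0.062.

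The remaining members stand at loci of their own. Nnat, a membrane protein of the endoplasmic reticulum, had 112, 117, 113 and 162 in the mixes and 159, 148, 143 and 131 in the cocultures (0.20, SE 0.12). Nap1l5, a histone chaperone relative, had a difference of 0.86 with the widest error of any member (SE 0.42). Its dim signals were 42.3, 39.6, 2.48 and 54.2 in the mixes and 71.4, 57.9, 51.4 and 87.6 in the cocultures, and the value ranged from 0.37, without the low shp53 mix replicate 1, to 1.34 when single arrays were left out. Gnas, a G protein subunit, differed by 0.04 (SE 0.077), H13, a signal peptide peptidase, by 0.12 (SE 0.15), and Commd1, a copper and NF-kB regulator, by 0.11 (SE 0.075). Slc38a4, an amino acid transporter, differed by -0.15 (SE 0.12), Impact, a translational regulator, by -0.043 (SE 0.08), and Inpp5f, a phosphoinositide phosphatase, by -0.064 (SE 0.07). In each of these 6 genes the groups overlapped.

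By expressed allele, 6 of 14 maternally expressed members were below 0, with a median of 0.058, and 10 of 16 paternally expressed members were below 0, with a median of -0.041. Grb10, Gnas and Inpp5f, whose expressed allele depends on tissue or transcript, were left out of this count. Ube3a was counted as maternal, though its imprint is confined to neurons. The expressed allele was taken from textbook knowledge and was not read in these cells. It may not hold in them for other members as well. Over probe sets the order was the other way round, with medians of -0.18 over 46 maternal and -0.10 over 28 paternal probe sets. Of the 46, Meg3 held 11, Rian 4 and Mirg 2, all of 1 locus. The allele taken from textbook knowledge thus did not order the differences in a stable way.

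Coculture with the 2 kinds of knockdown cell was compared next. The 2 comparisons use separate arrays. For shTop1, 17 of 33 members were below 0 with a median of -0.022, and for shp53 the median was -0.049. Limma called 0 of 14267 genes in each (0.0% called), with 1170 and 979 genes at an unadjusted p under 0.05. The test of the difference between the coculture effects called 0 genes as well (0.0% called), with 614 at an unadjusted p under 0.05 and no member among them. Over single probe sets 5 of the 83 were under 0.05, where 5.11% of all probe sets were, with a smallest limma adjusted p of 0.83. They were 1432037_at and 1457603_at of Ppp1r9a, 1452906_at and 1436713_s_at of Meg3 and 1455631_at of H13. Members with unlike values included Ascl2 (-0.07 for shTop1, 0.39 for shp53), Cdkn1c (-0.05 and -0.35), Copg2 (0.37 and -0.01) and Nnat (0.38 and 0.02), and none of these differences between knockdowns had an unadjusted p under 0.05.

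**Figure D4:**
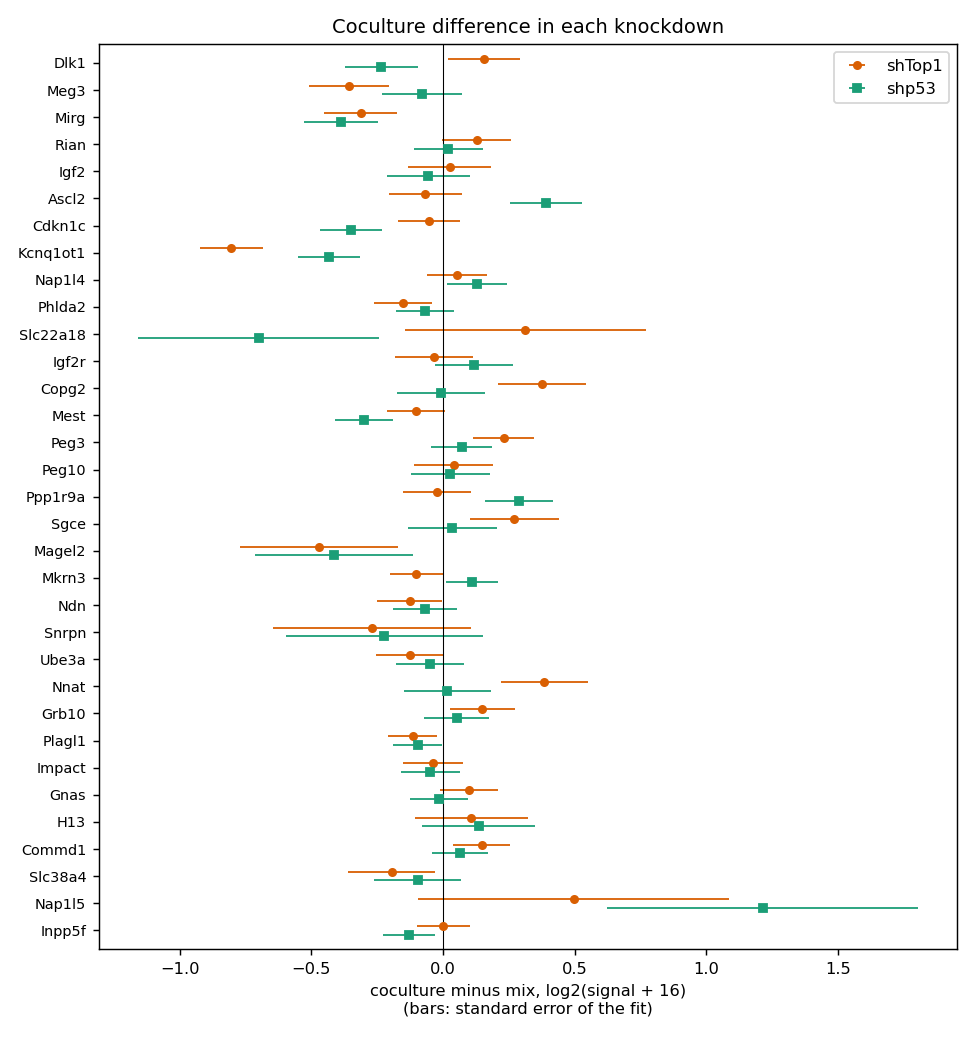
Difference between coculture and mix for shTop1 (orange circles) and shp53 (green squares) of the 33 imprinted genes tested, on the log2(signal + 16) scale with standard errors of the fit as bars. Kcnq1ot1 lies below 0 in both, at -0.80 and -0.43, and so does Mirg, at -0.31 and -0.39.

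The knockdowns themselves were compared over mix and coculture together. Limma called 0 of 14267 genes between shTop1 and shp53 (0.0% called), with 670 at an unadjusted p under 0.05. In 18 of 33 members the shTop1 arrays were lower, with a median of -0.013. An unadjusted p under 0.05 was found for Kcnq1ot1 (-0.39, SE 0.084), Rian (-0.30, SE 0.092) and Cdkn1c (0.24, SE 0.083), with limma adjusted p of 0.703, 0.962 and 0.999. None of the 33 members had all shTop1 arrays below all shp53 arrays, as 1.07% of all genes did, or above, as 1.02% did. Of the 83 probe sets 0 were wholly lower, against 1.13% of all probe sets, and 2 wholly higher, against 1.11%. These 2 were the Ube3a probe set 1416681_at (difference 0.26) and the Peg3 probe set 1417356_at (0.42), and neither was the brightest of its gene.

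Factors that keep or remove DNA methylation at imprints were listed apart from the members. Of 25, 24 were above the filter, 18 of these were below 0, and the median was -0.13. Limma called 0 of them, and 4 had an unadjusted p under 0.05, all with lower signal in coculture. The 3 with the smallest p were Tet1, a dioxygenase that oxidises methylcytosine, Zfp445, a zinc finger protein that guards imprints, and Zfp42 (Rex1), a pluripotency factor that acts at some imprinted genes. The brightest Tet1 probe set had 6095 to 7139 in the mixes and 5459 to 6033 in the cocultures. These did not overlap (-0.23, SE 0.072, limma adjusted p = 0.358). The next brightest Tet1 probe set had 3594 to 3871 in the mixes and 4054 to 5146 in the cocultures. All its cocultures lay above its mixes, so the direction for Tet1 depended on the probe set. In the dimmer Tet1 probe sets the groups overlapped. The brightest Zfp445 probe set had 3264 to 3584 and 2817 to 3112, also with no overlap (-0.20, SE 0.069, limma adjusted p = 0.375). In the dimmer probe sets of Zfp445 the groups overlapped. Zfp42 had 11975 to 13570.2 and 8952 to 12419 (-0.28, SE 0.10, limma adjusted p = 0.39). Zfp57, which binds the hexamer above, had a difference of -0.21 (SE 0.10, limma adjusted p = 0.482). The summed signal of the list was 121359 to 125530 in the mixes and 116230 to 119824 in the cocultures. Bright genes weigh most in this sum, which was not tested. The brightest Dnmt3b probe set had 10429 to 11964 and 9674 to 10281, while its other probe set overlapped. Trim28, the brightest of the list, had 20163 to 23039 and 20482 to 23579, so it did not follow.

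Other imprinted genes, 44 in number, had 31 above the filter, of which 13 were below 0, with a median of 0.035. Limma called 0 of them, and an unadjusted p under 0.05 was reached by 2 lower and 2 higher in coculture. Kcnq1, the potassium channel gene that Kcnq1ot1 overlaps in antisense, had the smallest p. It was dim, with 47.7, 68.8, 53 and 56.3 in the mixes and 87.2, 164, 87 and 73.6 in the cocultures, all above the mixes (0.67, SE 0.20, limma adjusted p = 0.357). Pon3, a lactonase, had 35.8 to 64.1 in the mixes and 67.5 to 70.6 in the cocultures (0.34, SE 0.12). Zdbf2, a zinc finger gene, had 856 to 997 and 582 to 908 (-0.38, SE 0.14), with 1 coculture among the mixes.

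Markers of other cells were summed over each list, with no test of the sums, and their part in the values above was not tested. Summed signal of fibroblast markers was 4397 to 4890 in the mixes and 4887 to 5247 in the cocultures, which overlap. Most of it came from Vim (3077 to 3717 and 3461 to 3962), whose other 2 probe sets did not follow, with 1894 to 2362 in the mixes and 1664 to 2279 in the cocultures for one of them. Of the 16 markers, 9 were above the filter, 8 of these above 0, while Col3a1, Col6a1, Dcn, Lum, Postn, S100a4 and Twist2 were not. Thy1 (155 to 182, then 202 to 241) and the brightest Col5a1 probe set (156 to 205, then 213 to 242) had all cocultures above all mixes. The next brightest Col5a1 probe set overlapped (140 to 186 and 128 to 202). Acta2 ran lower, with 266 to 380 in the mixes and 233 to 275 in the cocultures, which overlapped. Primitive endoderm markers summed to 52991 to 55774 and 56450 to 63095, with 10 of 11 members above 0 and 11 of 12 above the filter. Most of this sum came from Col4a1, Sparc and Lama1. Trophectoderm markers summed to 7107 to 7906 and 8033 to 8740, mostly from Krt8 and Krt18. Of these markers 8 of 12 were above the filter, 7 of these above 0, while Elf5, Gata3 and Tpbpa were not above the filter. Neural markers summed to 2889 to 3199 and 2527 to 2881, with 7 of 10 above the filter and 4 of these below 0. Most of that sum came from Otx2 alone (1756 to 2012 in the mixes and 1466 to 1723 in the cocultures). The next brightest, Tubb3, overlapped, with 560 to 641 and 529 to 621.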

How the data were processed

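The deposited values are linear intensities of each probe set, from biotin-labelled RNA per the labels' protocols. The method of probe summary was not given in the sources used here. Each array had a mean of about 500.003 once 2% of values at either end were dropped, so the authors had scaled the intensity values, as read from the file itself. The members and lists were chosen with earlier results of these data known. Symbols came from the platform annotation: 34958 probe sets had 1 symbol, 932 several and 9211 were not listed. Intensities were quantile normalised and taken as log2(signal + 16), which understates differences of dim genes, and 21.1% to 25.6% of values per array lay under 16. The brightest probe set on average stood for a gene, which was kept at or above the 30th percentile. Group means were fitted with limma 3.58.1 (lmFit and eBayes, R 4.3.3, 4 residual degrees of freedom), two-sided, with Benjamini-Hochberg adjustment over all 14267 genes, or over all 31571 probe sets. Every member is accounted for. From the lists, up to 5 genes past the threshold were to be named, or where none passed the 3 with the smallest p, and Zfp57 was named after its values were seen. The limma fit was tested on simulated log2 values with known changes, for the averaged coculture comparison. No batch is given in the labels used here. The number of arrays limits the precision.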

Additional observations from a re-analysis of the deposited data

Results flagged for a closer look

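The mixes and the cocultures of each member, 4 arrays each, were searched for a single array far from the other 3, in 66 sets of values. Chance flags about 1 in 20 such sets, and 2 were found. Nnat had a signal of 161.924 in shp53 mix replicate 2, above the 112 to 117 of the other mixes. Inpp5f had 623.771 in shp53 mix replicate 1, below the 689.7 to 698 of the other mixes.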

How the results depend on the processing

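No member was called under any alternative, trended variances and a replicate block included. Replicate numbers did not pair the arrays (correlations of deviations -0.0067 to 0.051), and the block left the count of members called at 0 in all 5 comparisons. Of 625 recomputed member differences, 592 kept their sign, and 17 of 33 members never turned.

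The median member difference, averaged over knockdowns, was 0.033 with median centring, -0.11 with probe sets averaged per gene and -0.12 with each probe set taken singly, with or without the replicate block (the block with probe sets was added after seeing the data). For shTop1 the same settings gave 0.023, -0.10 and -0.10. For shp53 median centring gave 0.020 and single probe sets -0.081. The difference between knockdown effects had medians of -0.056 with the mean of probe sets and -0.018 with single ones, and shTop1 against shp53 had 0.057 with median centring.

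Leaving out single arrays, these medians ranged from -0.031 to 0.020 averaged over knockdowns, from -0.022 to 0.041 for shTop1, from -0.068 to 0.031 for shp53 and from -0.039 to 0.086 for the difference between them. Single members that crossed 0 were Dlk1 (-0.11 to 0.030), Igf2 (-0.12 to 0.090), Igf2r (-0.049 to 0.13), Peg10 (-0.031 to 0.099), Snrpn (-0.50 to 0.0061), Mkrn3 (-0.031 to 0.038), Slc22a18 (-0.48 to 0.097), Impact (-0.10 to 0.013), Gnas (-0.010 to 0.091) and H13 (-0.046 to 0.29).

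With probe sets averaged per gene, which weighs dim ones like bright ones, the sign turned for Dlk1 (0.40), Rian (-0.19), Igf2 (0.13), Peg3 (-0.062), Sgce (-0.12), Ppp1r9a (-0.20), Slc22a18 (0.061), Grb10 (-0.17), Gnas (-0.054), H13 (-0.19) and Commd1 (-0.033). With median centring it turned for Igf2 (0.033) and Impact (0.022), and with the authors' scaling alone for Peg10 (-0.014) and Mkrn3 (-0.0048). The cause was not tested in any of these. Dim probe sets limit the precision: the SE was widest for Nap1l5 (0.42), Slc22a18 (0.32) and Snrpn (0.26).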
